A study of Mus musculus with 18 samples.

Results

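Samd3, Ctla2a, Ctla2b and Fzd5, 4 of the 15964 mouse genes named on the arrays, were followed across 3 dendritic cell populations of the spleen. They were chosen by their signals in these same data, since at least 1 probe set of each gene was high in interferon-producing killer dendritic cells (IKDC). Every probe set whose platform symbol is 1 of the 4 was taken, which gave 6 of 36701 probe sets. Of these, 5 carry a single symbol and 1 carries both Ctla2 symbols. The study profiled mouse spleen IKDC beside the plasmacytoid subset of dendritic cells (PDC) and the conventional subset (cDC), which the submitters named as the control population. Each population had 2 separately prepared samples, and each of the 6 samples was hybridised to the 3 array types of the Affymetrix U74 version 2 set (U74A, U74B and U74C), 18 arrays in all. Strain, age, sex, any treatment and the markers used to isolate the cells are not given in the sources used here, nor is whether the 2 samples came from separate animals. P-values below therefore measure only the spread between separately prepared samples, part of which may be technical.

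Samd3 encodes a protein with a sterile alpha motif, a fold through which proteins bind each other, and its function has been little studied. Ctla2a and Ctla2b encode short proteins that resemble the propeptide of cathepsin L, the part of the precursor that keeps this cysteine protease inactive until it is cut away. The protein of Ctla2a inhibits cathepsin L, and both genes were first described in activated mouse T cells. Fzd5 encodes a Frizzled receptor, a membrane protein that binds secreted Wnt ligands and passes the signal to Dishevelled proteins and, in the canonical pathway, to beta-catenin. IKDC were described as spleen cells that share surface molecules with natural killer (NK) cells and dendritic cells.

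The label of genes high in IKDC held for Samd3, Ctla2b and Fzd5 and, for Ctla2a, only through the probe set it shares with Ctla2b. Both IKDC signals lay above the other 4 in 4 of the 6 probe sets, 3 of them with a single symbol. Signals are linear intensities that the submitters scaled to an average of 150 on each array. Differences between populations are on the log2(signal + 16) scale, with the SE of the fit, and a signal of 60 was taken as the lower limit of measurement. Unspiked bacterial control probe sets, which should be dark, reached 45.2 on U74A, 122.7 on U74B and 148.7 on U74C. Since the choice of genes used the level in IKDC, differences between IKDC and the other populations are given as a description without a test, and only PDC against cDC was tested for these genes.

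Samd3 had the largest difference between IKDC and each of the other populations among the 7802 probe sets tested on U74C. Its promoter window, on chromosome 10, is shown because it is the only one of the 4 genes with a T-box motif. The window runs from 250 bases before to 50 after the annotated start (RefSeq, GRCm38.p6, chr10:26229457-26229756, plus strand), 5′ to 3′, with motif matches in capitals.
Samd3: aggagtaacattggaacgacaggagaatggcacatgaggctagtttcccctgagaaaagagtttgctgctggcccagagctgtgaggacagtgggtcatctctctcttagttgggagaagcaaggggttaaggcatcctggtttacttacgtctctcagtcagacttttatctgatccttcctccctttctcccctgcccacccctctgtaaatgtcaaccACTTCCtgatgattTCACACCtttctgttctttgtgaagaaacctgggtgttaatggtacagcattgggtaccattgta
The capitals are ACTTCC, the ETS motif GGAAGT read on the opposite strand, 29 bases before the start, and the T-box motif TCACACC 15 bases before it. Samd3 signals (probe set 132116_at) were 6375.1 and 9275.2 in IKDC, 505.9 and 320.4 in PDC, and 287.1 and 365 in cDC. Both IKDC samples were far above the other 4, while the PDC and cDC samples overlapped. All 6 signals exceeded 148.7, so Samd3 was measured above the control probe sets in every population. The mean was 7825 ± 2051 in IKDC, 413.1 ± 131.2 in PDC and 326.1 ± 55.1 in cDC (SD, n = 2 each). The IKDC signal exceeded 99.8% of probe sets of its arrays, against 89.5% in PDC and 86.5% in cDC. The ratio of means was 18.9 for IKDC over PDC and 24 for IKDC over cDC. On the log2 scale the difference was 4.20 ± 0.32 for IKDC minus PDC and 4.50 ± 0.32 for IKDC minus cDC. PDC minus cDC was 0.30 ± 0.32 and did not pass the test (limma, adjusted p = 0.762). Without PDC replicate 1 that last difference was -0.01.

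Ctla2a and Ctla2b lie in a group of cathepsin-like genes on chromosome 13, and their promoter windows are nearly the same sequence. They are printed together to show where the copies differ (RefSeq, GRCm38.p6, minus strand, Ctla2a at chr13:60936576-60936875 and Ctla2b at chr13:60897398-60897697), 5′ to 3′, with motif matches in capitals.
Ctla2a: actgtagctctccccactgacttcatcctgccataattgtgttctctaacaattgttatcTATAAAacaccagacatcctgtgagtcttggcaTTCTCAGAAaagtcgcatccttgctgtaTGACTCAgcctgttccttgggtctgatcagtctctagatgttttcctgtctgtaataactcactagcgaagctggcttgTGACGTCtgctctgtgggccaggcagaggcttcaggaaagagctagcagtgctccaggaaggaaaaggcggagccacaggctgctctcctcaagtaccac
Ctla2b: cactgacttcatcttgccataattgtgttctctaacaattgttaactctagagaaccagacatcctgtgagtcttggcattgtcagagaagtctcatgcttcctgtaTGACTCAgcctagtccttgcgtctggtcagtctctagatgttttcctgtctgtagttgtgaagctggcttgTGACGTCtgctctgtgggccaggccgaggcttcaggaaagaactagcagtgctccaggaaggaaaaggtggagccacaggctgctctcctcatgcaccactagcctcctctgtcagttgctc
Of 278 aligned bases, 255 were identical (91.7%). In the Ctla2a window the capitals mark TATAAA, the STAT motif TTCNNNGAA, the AP-1 motif TGACTCA and the CRE motif TGACGTC. The Ctla2b window holds the AP-1 and CRE motifs but no TATAAA and no TTCNNNGAA. RefSeq gives Ctla2a another start, whose window overlaps the one shown.

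Ctla2b signals (probe set 103518_at, U74A) were 1181.5 and 1005.8 in IKDC, 22.6 and 21.4 in PDC, and 32.8 and 70 in cDC. Only 1 of the 4 PDC and cDC arrays reached 60, and both IKDC arrays were far above it. The mean was 1094 ± 124 in IKDC, 22.0 ± 0.849 in PDC and 51.4 ± 26.3 in cDC (SD, n = 2 each). Because both PDC signals were under 60, the difference from PDC is a bound, and Ctla2b was at least 18.2-fold higher in IKDC than in PDC. This bound is the geometric mean of the IKDC signals over 60. The ratio of means for IKDC over cDC was 21.3. The log2 difference for IKDC minus cDC was 4.09 ± 0.35. PDC minus cDC was -0.77 ± 0.35 (limma, adjusted p = 0.337). Since only 1 of these 4 arrays reached 60, that test can say little about PDC against cDC.

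The probe set shared by Ctla2a and Ctla2b (96912_s_at, U74A) gave 2787.3 and 2023.7 in IKDC, 271.4 and 93.1 in PDC, and 62.3 and 109.4 in cDC. The suffix marks probes that match more than 1 transcript, so its signal cannot be divided between the copies. The IKDC samples were again above the other 4, the PDC samples differed from each other, and PDC and cDC overlapped. The mean was 2406 ± 540 in IKDC, 182.2 ± 126.1 in PDC and 85.8 ± 33.3 in cDC (SD, n = 2 each). The ratio of means was 13.2 for IKDC over PDC and 28.0 for IKDC over cDC. The log2 difference was 3.76 ± 0.43 for IKDC minus PDC and 4.59 ± 0.43 for IKDC minus cDC. PDC replicate 1 carried much of the PDC signal, and without it IKDC minus PDC was 4.45. Without PDC replicate 2 it was 3.06. PDC minus cDC was 0.84 ± 0.43 (limma, adjusted p = 0.415), 0.14 without PDC replicate 1 and 1.54 without PDC replicate 2.

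The 2 probe sets that carry the Ctla2a symbol alone did not show this pattern. The first (162421_r_at, U74A) gave 6.2 and 2.2 in IKDC, 6.3 and 1.9 in PDC, and 2.7 and 16.1 in cDC. All of these lie under the highest control probe set of U74A, and the probe set was not tested. The second (169127_at, U74C) gave 91.8 and 34.2 in IKDC, 26.1 and 66.4 in PDC, and 174.8 and 24.2 in cDC. It passed the filter through 3 arrays of 3 different populations, the populations overlapped, and only cDC replicate 1 exceeded the controls of U74C. Its log2 difference was 0.32 ± 0.85 for IKDC minus PDC, -0.25 ± 0.85 for IKDC minus cDC and -0.57 ± 0.85 for PDC minus cDC (limma, adjusted p = 0.846). These arrays therefore give no level of Ctla2a apart from Ctla2b.

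Fzd5 was measured above the limit in IKDC only. Its promoter window, on chromosome 1, is shown for its base composition (RefSeq, GRCm38.p6, chr1:64737701-64738000, minus strand), 5′ to 3′, with motif matches in capitals.
Fzd5: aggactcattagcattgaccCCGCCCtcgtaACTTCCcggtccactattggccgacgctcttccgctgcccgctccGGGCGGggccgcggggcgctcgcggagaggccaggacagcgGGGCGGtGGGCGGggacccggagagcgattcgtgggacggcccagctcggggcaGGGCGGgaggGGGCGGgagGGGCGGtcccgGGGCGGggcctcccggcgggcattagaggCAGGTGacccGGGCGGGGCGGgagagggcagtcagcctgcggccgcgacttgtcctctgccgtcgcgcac
The window is 75.7% G and C, against 47.7% for Samd3, 49% for Ctla2a, 50% for Ctla2b and a median of 52.7% over 32851 RefSeq promoter windows. Its capitals hold 10 matches of the GC box GGGCGG, 1 of them on the opposite strand and the last pair overlapping by 1 base. They also hold ACTTCC, the ETS motif on the opposite strand, and CAGGTG, the E-box CACCTG on the opposite strand. Fzd5 signals (probe set 108784_at, U74B) were 513.7 and 397.3 in IKDC, 17.1 and 7.0 in PDC, and 19.7 and 9.6 in cDC. The 4 PDC and cDC signals were all under 60 and their order carries no information. The mean was 455.5 ± 82.3 in IKDC, 12.1 ± 7.14 in PDC and 14.6 ± 7.14 in cDC (SD, n = 2 each). Fzd5 was at least 7.53-fold higher in IKDC than in PDC, and at least 7.53-fold higher than in cDC, with both bounds set against a signal of 60. Set against the highest control of U74B, the bound was 3.68-fold. The fitted log2 differences of Fzd5 depend on the pseudocount and are not given as sizes.

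**Figure D1:**
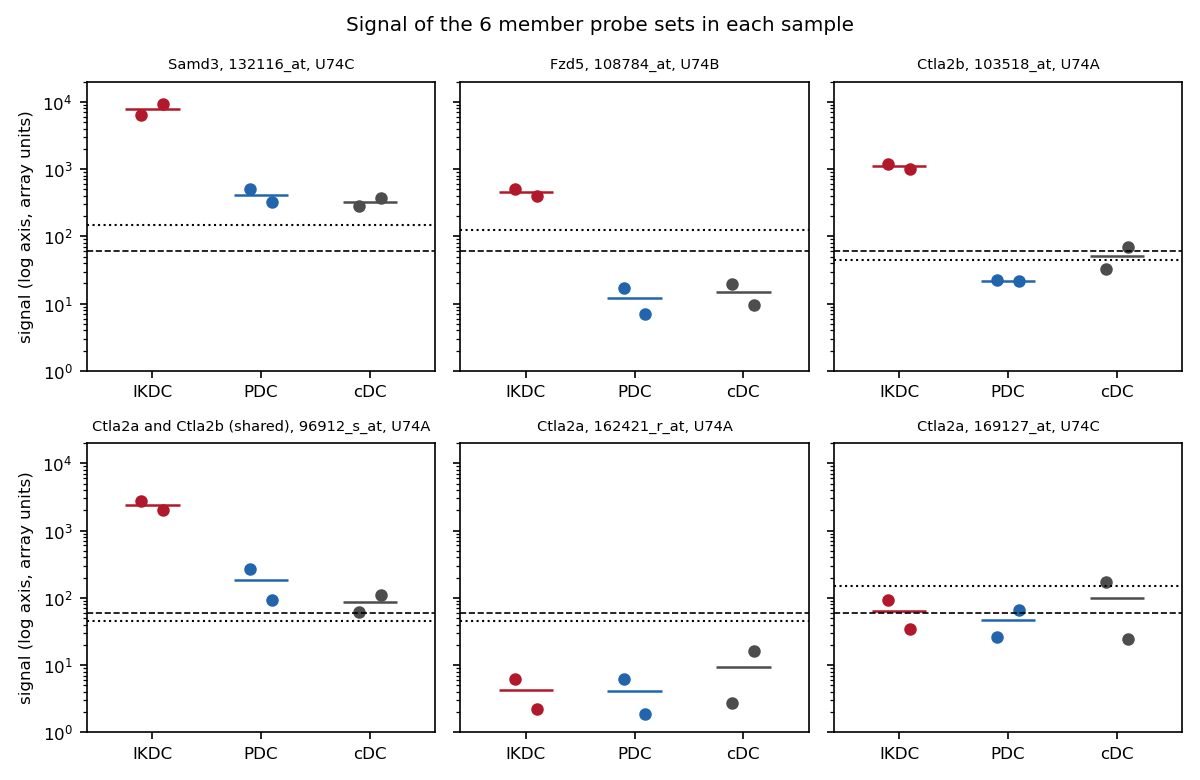
Deposited signal of each of the 6 probe sets in every sample (log axis, arbitrary intensity units), with IKDC left of PDC and PDC left of cDC, 1 point per array and a bar at the mean. The dashed line marks a signal of 60 and the dotted line the highest unspiked control of that array type. In 4 panels both IKDC points lie above the other 4, and in both single-symbol Ctla2a panels they do not.

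Of the probe sets of these genes, 4 reached 60 on at least 1 PDC or cDC array and were tested between these populations, which leaves out Fzd5. Ctla2b is among them through 1 cDC array alone (70). Its test compares mostly signals under 60 and can say little. Of the 4, 0 passed in PDC against cDC (limma, adjusted p from 0.337 to 0.846, 0 at an unadjusted p under 0.05). Over all 23285 probe sets tested, 3.65% passed in that comparison, 1.73% higher and 1.92% lower in PDC. For Samd3, Ctla2b and the shared probe set the adjusted p lay between 0.0715 and 0.992 over the alternative settings, so no order of PDC and cDC was shown for any of them. In bulk RNA of this kind, fewer cells of a type and less RNA per cell cannot be told apart.

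Few motifs recurred among the 4 promoter windows. The motifs below were searched on both strands, and their share among all 32851 windows of the same length gives the background. TCACACC (T-box) occurred in 3.98% of windows and here in Samd3 alone. GGAAGT (ETS) occurred in 23.8% of windows and here in Samd3 and Fzd5. TGACTCA (AP-1) in 5.2% and TGACGTC (CRE) in 3.21% of windows occurred here in both Ctla2 genes, whose windows are copies of each other and not independent. TTCNNNGAA (STAT), in 8.3% of windows, and TATAAA, in 13.6%, occurred here in Ctla2a alone. CACCTG (E-box), in 20.2%, and GGGCGG (GC box), in 35.7%, occurred here in Fzd5 alone. TGTGGT (RUNX), found in 16.8% of windows, was in none of the 4. Apart from the Ctla2 pair, the aligned parts of any 2 members' windows were 54.1% to 64.1% identical. A match of letters is a description and does not show that a factor binds there.

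**Figure D2:**
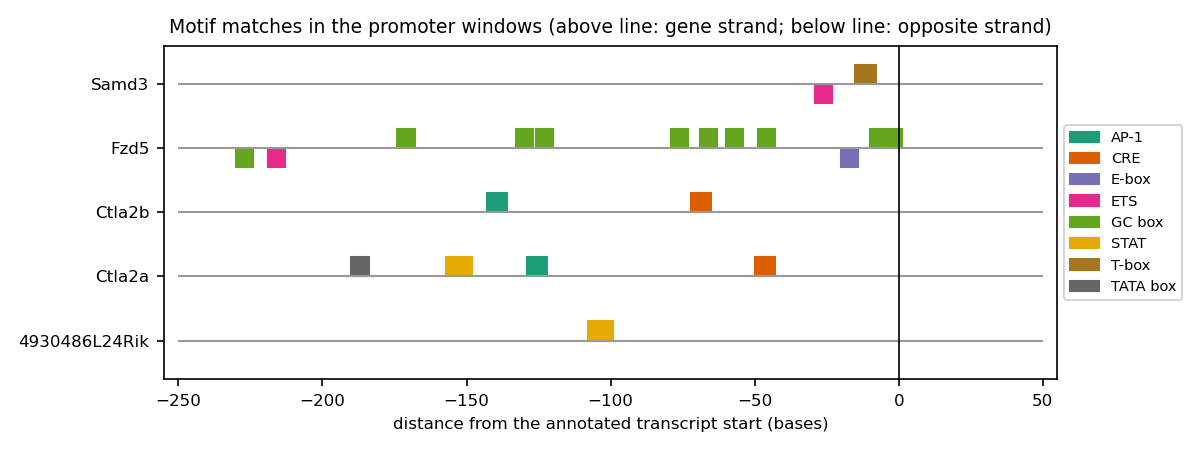
Position of motif matches in bases from the annotated start (horizontal axis) for the 4 genes and for 4930486L24Rik, the gene beside Ctla2b, 1 row per gene. The AP-1 and CRE matches recur in both Ctla2 rows, the 10 GC boxes lie in the Fzd5 row, and the T-box match lies in the Samd3 row.

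The genes beside the members in the RefSeq order were examined to see whether the IKDC pattern extended along the chromosome. With 3 protein-coding neighbours on either side, 19 genes other than the members were listed, 15 had a probe set with a single symbol and 11 passed the filter on low signals. For 1 of them only the IKDC arrays reached 60, so it had to differ and is described without a test. Of the other 10, 1 was higher and 1 lower in IKDC against PDC, and 0 were higher and 1 lower in IKDC against cDC (limma). The background was 2.06% of probe sets higher and 2.39% lower in IKDC than in PDC, and 2.68% higher and 2.92% lower in IKDC than in cDC.

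The gene that reached 60 in IKDC alone was 4930486L24Rik, the protein-coding gene next to Ctla2b. The order on the chromosome is Ctsll3, 4930486L24Rik, Ctla2b, Tpbpb, Ctla2a and Tpbpa. Signals of 4930486L24Rik (U74B) were 316 and 219.7 in IKDC, 13.5 and 7.5 in PDC, and 7.8 and 6.8 in cDC. Only the IKDC signals were above 60, as for Fzd5. The mean was 267.9 ± 68.1 in IKDC, 10.5 ± 4.24 in PDC and 7.3 ± 0.707 in cDC (SD, n = 2 each). The signal was at least 4.39-fold higher in IKDC than in PDC and than in cDC, or 2.15-fold against the highest control of U74B. Its promoter window was 65% identical to that of Ctla2a and 66% to that of Ctla2b over the aligned bases. These values were near those of genes on other chromosomes. The same window was 61.2% identical to that of Fzd5 and 58.7% to that of Samd3, and the Ctla2a and Samd3 windows were 64.1% identical. Tpbpa, Ctsj and Ctsq, further neighbours of Ctla2a, were too low to be tested.

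Beside Samd3, none of the 5 tested neighbours passed in IKDC against cDC. Arhgap18 had 474 and 512.6 in IKDC, 240.3 and 203.8 in PDC, and 580.2 and 685.8 in cDC. It was higher in IKDC than in PDC by a log2 difference of 1.1 (limma, adjusted p = 0.0406), a call lost in 11 of 17 alternatives, among them leaving out any 1 sample (adjusted p = 0.0682 to 0.263). It was lower in PDC than in cDC by a log2 difference of -1.45 (adjusted p = 0.0124), a call lost without PDC replicate 2 (0.0538), cDC replicate 1 (0.0648) or cDC replicate 2 (0.117). L3mbtl3, a chromatin reader of the malignant brain tumour domain family, was higher in PDC than in cDC by 1.75 ± 0.35 (limma, adjusted p = 0.0246), a call lost without PDC replicate 1 (0.054), PDC replicate 2 (0.128) or cDC replicate 1 (0.156). Beside Fzd5, Plekhm3 was the 1 gene that passed. Its mean was 472.1 ± 44.5 in IKDC, 2254 ± 393 in PDC and 1480 ± 600 in cDC (SD, n = 2 each), so it was low in IKDC, where Fzd5 was high. It fell by 2.21 in IKDC against PDC (limma, adjusted p = 0.00225) and fell by 1.56 in IKDC against cDC (adjusted p = 0.0149). The second call was lost without IKDC replicate 1 (adjusted p = 0.101), IKDC replicate 2 (0.0628) or cDC replicate 2 (0.113).

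Genes of cysteine cathepsins were examined next, because the Ctla2a protein inhibits cathepsin L. Whether Ctla2 proteins inhibit the other enzymes of the list was not tested. Cysteine cathepsins are proteases of the endosome and lysosome that cut proteins, among them antigens and the invariant chain of MHC class II. All 11 genes of the list, which also holds the asparaginyl endopeptidase gene Lgmn, were tested. Against PDC, 6 were lower and 1 was higher in IKDC, with a median log2 difference of -1.55 beside -0.02 over all probe sets (4.45% of probe sets passed in either direction). Against cDC, 5 were lower and 1 was higher in IKDC, with a median of -0.45 beside -0.01 (5.6% of probe sets passed in either direction). In PDC against cDC, 3 were higher and 0 lower (1.73% of probe sets were higher and 1.92% lower). In IKDC against PDC and against cDC, most of the listed genes that passed thus ran opposite to Ctla2b and the shared probe set.

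Ctsl, the cathepsin that the Ctla2a protein is known to inhibit, was high in PDC alone. Signals were 130.7 and 99.7 in IKDC, 3106.5 and 4107.1 in PDC, and 79.5 and 51 in cDC. Both PDC samples were far above the other 4. The log2 difference was -4.78 ± 0.31 for IKDC minus PDC (limma, adjusted p = 1.2e-05) and 5.49 ± 0.31 for PDC minus cDC (adjusted p = 3.08e-06). IKDC minus cDC was 0.70 and did not pass (adjusted p = 0.244). Ctsl and Ctla2b thus had their high level in different populations, PDC for Ctsl and IKDC for Ctla2b.

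Ctss, the protease that removes the invariant chain in dendritic cells, averaged 1354 ± 269 in IKDC, 6711 ± 123 in PDC and 6096 ± 472 in cDC (SD, n = 2 each). It fell by 2.31 in IKDC against PDC (limma, adjusted p = 0.000426) and fell by 2.17 against cDC (adjusted p = 0.000614). Ctsh, an aminopeptidase, averaged 128.7 ± 35.9 in IKDC, 2993 ± 581 in PDC and 1653 ± 680 in cDC. It fell by 4.39 in IKDC against PDC (adjusted p = 2.51e-05) and fell by 3.49 against cDC (adjusted p = 0.000126). Ctsz, a carboxypeptidase, was lower in IKDC than in PDC by -2.77 (adjusted p = 0.000172) and than in cDC by -2.52 (adjusted p = 0.000302). These 3 enzymes were low in IKDC and high in both other populations, the direction opposite to Samd3, Ctla2b and Fzd5. Ctsb was lower in IKDC than in PDC by -2.76 (adjusted p = 0.000177) and higher in PDC than in cDC by 1.44 (adjusted p = 0.0149). The Ctsb call against cDC, -1.31 (adjusted p = 0.0181), was lost without IKDC replicate 1 (0.114), IKDC replicate 2 (0.133) or cDC replicate 2 (0.116). Lgmn, an asparaginyl endopeptidase named here after its values were seen, was at 28.2 and 22.2 in IKDC, 100.1 and 109.2 in PDC, and 139.5 and 235.9 in cDC, and its call against PDC (adjusted p = 0.0372) was lost in 12 of 16 alternatives. The Ctsb call of PDC against cDC was lost without PDC replicate 2 (0.0976) or cDC replicate 1 (0.111), and the other 2 Ctsb probe sets did not pass in it.

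The 1 cathepsin higher in IKDC was Ctsw, the cathepsin of NK cells and cytotoxic T cells. Signals were 1676.6 and 1386.9 in IKDC, 128.4 and 92.9 in PDC, and 11.3 and 26 in cDC. IKDC, PDC and cDC did not overlap. The log2 difference was 3.62 ± 0.33 for IKDC minus PDC (limma, adjusted p = 8.45e-05), and Ctsw was at least 25.4-fold higher in IKDC than in cDC (adjusted p = 1.79e-05). PDC against cDC also passed, at 1.89 (adjusted p = 0.00814), and was lost without cDC replicate 1 (0.0786).

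Of the other cysteine protease inhibitors, 4 of the 8 with a probe set were tested, and 1 was higher and 1 lower in IKDC against both populations (2.06% of all probe sets were higher and 2.39% lower against PDC, and 2.68% higher and 2.92% lower against cDC). Cst7 codes for cystatin F, an inhibitor found in granules of cytotoxic lymphocytes, and was among the genes most like Ctla2b and Fzd5. Its signals were 1079.5 and 1062 in IKDC, 50.4 and 51 in PDC, and 70.7 and 73.6 in cDC. It was at least 17.8-fold higher in IKDC than in PDC (limma, adjusted p = 1.76e-05), and the log2 difference from cDC was 3.62 ± 0.29 (adjusted p = 3.48e-05). Cst3, which codes for the secreted cystatin C, ran the other way. It averaged 918.2 ± 66.8 in IKDC, 4446 ± 574 in PDC and 9520 ± 1885 in cDC (SD, n = 2 each). It fell by 2.25 in IKDC against PDC (limma, adjusted p = 0.000564) and fell by 3.34 against cDC (adjusted p = 3.93e-05). Cst7, Ctla2b and the shared Ctla2 probe set were thus high in IKDC, while cystatin C was high in the dendritic populations.

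**Figure D3:**
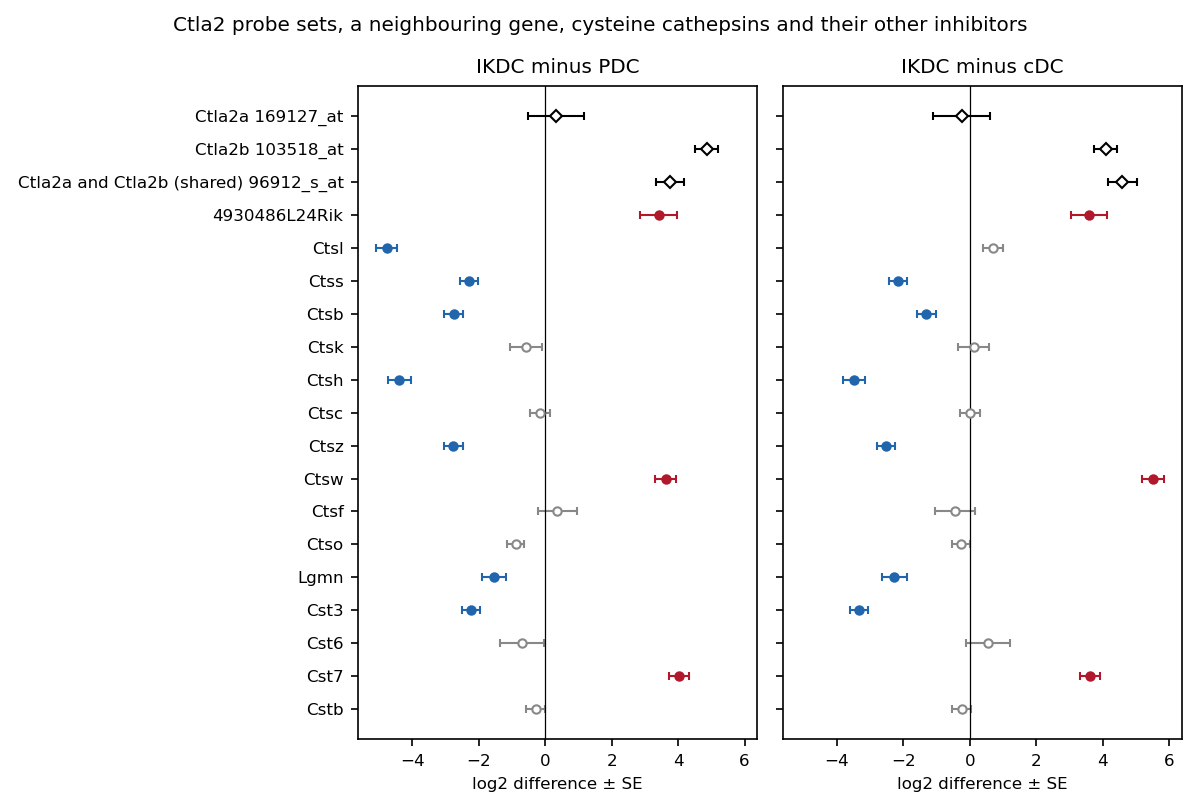
Log2 difference with its SE for the tested Ctla2 probe sets, the neighbour 4930486L24Rik and the tested genes of the cathepsin and inhibitor lists, IKDC minus PDC on the left and IKDC minus cDC on the right. Open diamonds are the probe sets of genes chosen for their IKDC level (not tested), red is past the threshold and higher, blue past it and lower, and grey open not passed. Ctsw and Cst7 lie to the right with Ctla2b and the shared probe set, and 6 blue points of the cathepsin list (Ctsl, Ctss, Ctsb, Ctsh, Ctsz and Lgmn) lie to the left against PDC. The values of Ctla2b against PDC and of 4930486L24Rik are fitted against signals under 60 and depend on the pseudocount. The red of 4930486L24Rik is not a test result, because only its IKDC arrays reached 60 and it had to differ.

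For the Wnt pathway around Fzd5, counts of called genes were near those of all probe sets. Of the other 15 Wnt receptors and co-receptors, 12 were tested, and 1 was higher in IKDC than in cDC, with 0 lower (2.68% of all probe sets were higher and 2.92% lower). None of the 12 passed in IKDC against PDC (4.45% of all probe sets passed). The list's median log2 difference was -0.31 for IKDC minus PDC and -0.43 for IKDC minus cDC. The receptor that passed was Fzd6, another Frizzled. Its signals were 194.8 and 242 in IKDC, 70.4 and 119.2 in PDC, and 49 and 46.5 in cDC. Both IKDC samples were highest, PDC lay between, and both cDC samples were under 60. Fzd6 was at least 3.62-fold higher in IKDC than in cDC (limma, adjusted p = 0.031), or 1.77-fold against the highest control of U74B. The call was lost without IKDC replicate 1 (0.144), IKDC replicate 2 (0.245), cDC replicate 1 (0.123) or cDC replicate 2 (0.128). IKDC minus PDC was 1.11 ± 0.42 for Fzd6 (adjusted p = 0.24).

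Among 16 tested genes of Wnt signal transduction, 1 was higher in IKDC than in cDC and 0 passed against PDC, again near the 2.68% of all probe sets higher than in cDC and the 4.45% that passed against PDC. The gene was Gsk3b, the kinase that marks beta-catenin for destruction. Its signals were 541 and 705.9 in IKDC, 389.9 and 573.6 in PDC, and 259.5 and 240.4 in cDC. IKDC and PDC overlapped, and both lay above cDC. The log2 difference was 1.25 ± 0.28 for IKDC minus cDC (limma, adjusted p = 0.0322) and 0.37 for IKDC minus PDC (adjusted p = 0.636). The call was lost without IKDC replicate 1 (0.0902), IKDC replicate 2 (0.246), cDC replicate 1 (0.138) or cDC replicate 2 (0.155), and in the mean over all its probe sets (0.453).

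By the brightest probe set, 0 of 12 tested Wnt ligand or release genes, 0 of 10 nuclear factors and 0 of 3 secreted inhibitors passed in any comparison, beside 4.45% of all probe sets in IKDC against PDC, 5.6% in IKDC against cDC and 3.65% in PDC against cDC. Lef1, a transcription factor that acts with beta-catenin, had 740.8 and 742.6 in IKDC, 398.6 and 451.8 in PDC, and 493.1 and 333.4 in cDC. Its log2 difference was 0.78 for IKDC minus PDC (limma, adjusted p = 0.179) and 0.85 for IKDC minus cDC (adjusted p = 0.114). Bcl9l, a beta-catenin coactivator, had 0.32 for IKDC minus PDC (adjusted p = 0.733) and 0.71 for IKDC minus cDC (adjusted p = 0.265). Wnt2, a ligand, had -0.69 for IKDC minus PDC (adjusted p = 0.342) and -0.01 for IKDC minus cDC (adjusted p = 0.988). Tle4, a corepressor that binds these factors, is named after its values were seen. It had 78.6 and 100 in IKDC, 11.6 and 27.2 in PDC, and 14.7 and 8.7 in cDC. Only its IKDC arrays reached 60, so the filter admitted it through IKDC and no p-value is given. Tle4 is counted among the 10 nuclear factors that did not pass. These counts use the brightest probe set of each gene. A dimmer probe set of the nuclear factor Tcf7l2 was lower in IKDC, with 10.1 and 10.2 in IKDC, 190.7 and 124.9 in PDC, and 149.1 and 216.2 in cDC (limma, adjusted p = 0.00799 against PDC and 0.00478 against cDC). The brightest Tcf7l2 probe set did not pass against PDC (adjusted p = 0.706) or cDC (adjusted p = 0.833).

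**Figure D4:**
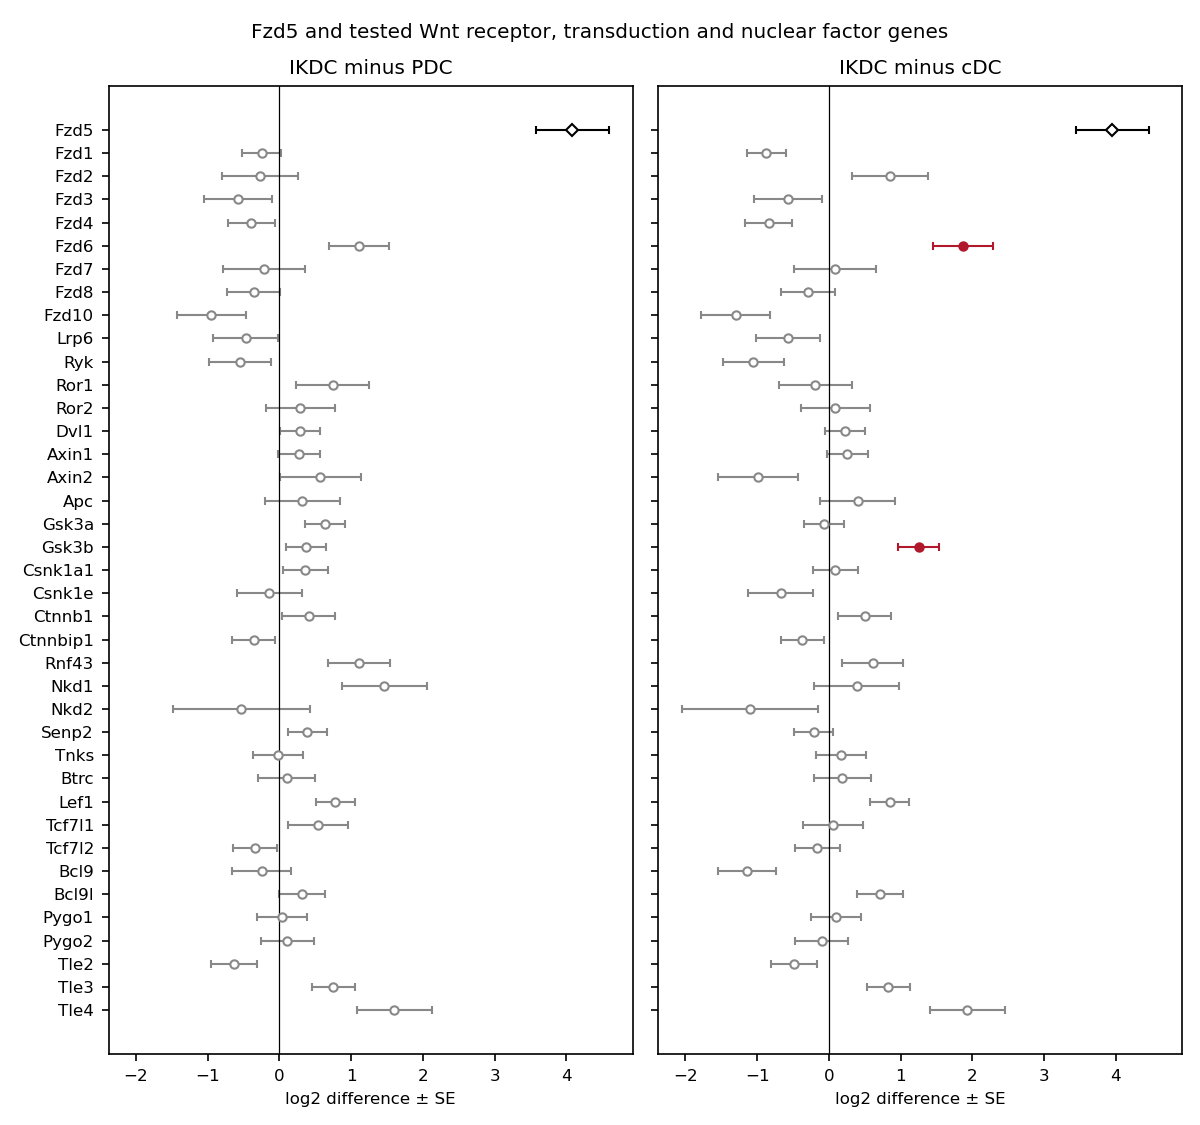
Log2 difference with its SE for Fzd5 (open diamond, chosen for its IKDC level and not tested) and the tested genes of the Wnt receptor, transduction and nuclear factor lists, IKDC minus PDC on the left and IKDC minus cDC on the right. Red is called higher and grey open not passed, the Fzd5 values are fitted against signals under 60 and depend on the pseudocount, with Fzd6 and Gsk3b the red points of the right panel.

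Of 11 tested genes with a sterile alpha motif or a related adaptor structure, 0 passed against PDC, and 1 was lower and 0 higher in IKDC than in cDC. These counts are near the shares of all probe sets (4.45% against PDC and 5.6% against cDC). The lower gene was Samhd1, a nucleotide triphosphate hydrolase with a sterile alpha motif. It averaged 581.6 ± 243.4 in IKDC, 885.8 ± 100.2 in PDC and 1804 ± 448 in cDC (SD, n = 2 each). Its log2 difference for IKDC minus cDC was -1.65 ± 0.33 (limma, adjusted p = 0.0128), and the call was lost without IKDC replicate 2 (0.163) or cDC replicate 2 (0.115). A dimmer probe set of the adaptor gene Sash1 had 9.6 and 4.4 in IKDC, 40.7 and 3.1 in PDC, and 125.3 and 126.2 in cDC. Only its cDC arrays reached 60, so it had to differ and is described without a test. The brightest Sash1 probe set did not pass in IKDC against cDC (limma, adjusted p = 0.809).

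The genes with profiles most like those of the members were listed. Likeness was the Euclidean distance between log2 profiles over the 6 samples, each centred on its own mean, among 12192 other genes, and since the members were selected for a high IKDC level, being near each other and other genes high in IKDC follows from that choice. Samd3 lay 1.04 from Fzd5, 1.09 from the shared Ctla2 probe set and 1.33 from Ctla2b. The single-symbol Ctla2a probe set lay 5.62 from Samd3 and 5.65 from Ctla2b. The genes nearest to Samd3 were Ncr1 at 0.51, Nkg7 at 0.53, Gimap4 at 0.66, Sh2d2a at 0.89 and Klra3 at 0.91. Ncr1, which codes for the NK receptor NKp46, had 1357.3 and 1608.1 in IKDC, 84.2 and 60.9 in PDC, and 38.8 and 40.1 in cDC.

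For Fzd5 the nearest genes were Cd55 at 0.54, Gimap4 at 0.55, Klra3 at 0.61, Gimap7 at 0.61 and Cst7 at 0.68. Cd55, an inhibitor of complement, had 353.9 and 227.6 in IKDC, 10.4 and 5.1 in PDC, and 6.7 and 4.8 in cDC. For Ctla2b they were Klra3 at 0.84, Cst7 at 1.01, Ipcef1 at 1.05, Gimap4 at 1.14 and Fasl at 1.22. The shared Ctla2 probe set was nearest to Gzma at 0.35, then to Txk at 0.58, Sh2d2a and Gimap6 at 0.92 and Cd2 at 1.03. Gzma, which codes for the protease granzyme A, had 4262.4 and 3590.5 in IKDC, 511.3 and 214.7 in PDC, and 135.4 and 223.2 in cDC. In Gzma, as in the shared probe set, PDC replicate 1 was higher than PDC replicate 2 and than both cDC samples. The Ly49 receptor gene Klra3 and the GTPase gene Gimap4 each recurred in 3 of the 4 lists.

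**Figure D5:**
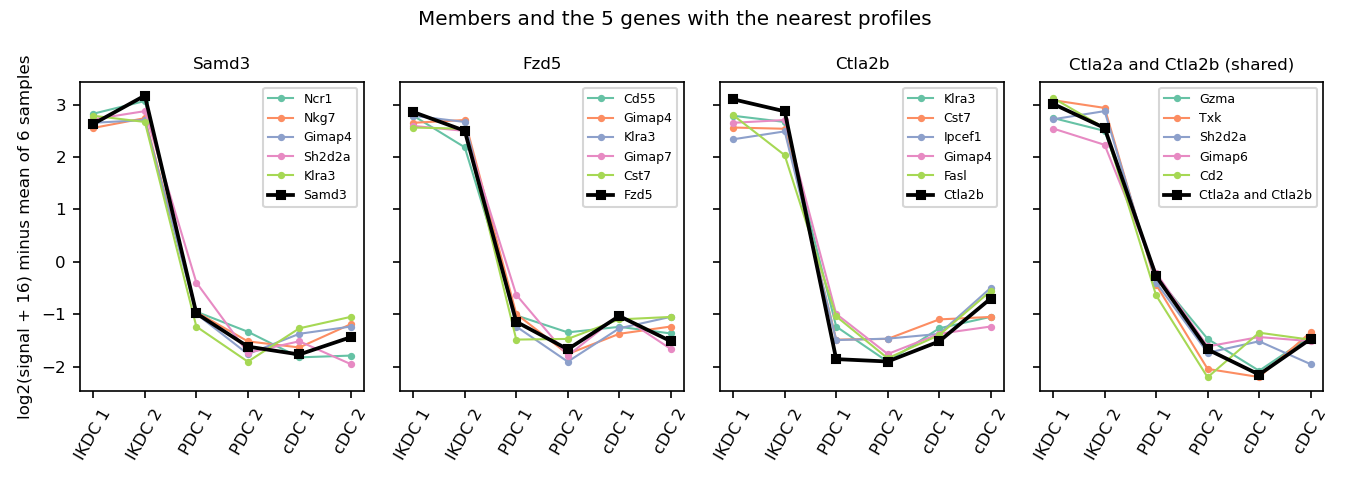
Centred log2(signal + 16) profiles over the 6 samples (IKDC, PDC, cDC from left to right) of the 4 member probe sets high in IKDC and of the 5 genes nearest to each. Lines only join the samples of a gene. All profiles are high in both IKDC samples, and the shared Ctla2 probe set and Gzma are higher in PDC replicate 1 than in PDC replicate 2.

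Markers of other cell types were summed over the genes of each list that had a single-symbol probe set and given beside the members. Beside the counts in this paragraph, 2.06% of all probe sets were higher and 2.39% lower in IKDC than in PDC. Against cDC, 2.68% were higher and 2.92% lower in IKDC, and 1.73% higher and 1.92% lower in PDC. NK cell markers summed to 48572 and 54095 in IKDC, 5568 and 4041 in PDC, and 3272 and 4198 in cDC, and 9 of 9 tested were higher in IKDC than in each other population. Of these 9, Eomes reached 60 in IKDC alone (1210.7 and 1316.3) and had to differ. PDC markers summed to 8783 and 9929 in IKDC, 55833 and 64040 in PDC, and 11623 and 11943 in cDC, and 8 of 8 were higher in PDC than in cDC. Conventional dendritic cell markers summed to 6682 and 5168 in IKDC, 31636 and 31816 in PDC, and 60323 and 52739 in cDC, and 8 of 10 were lower in IKDC than in cDC. Against PDC, 6 of these 10 were lower and 1 was higher in IKDC. The higher gene was Itgax, which codes for CD11c, with 1248.9 and 1358.9 in IKDC, 238.4 and 338.7 in PDC, and 1556.1 and 2614.2 in cDC. Itgax was higher in IKDC than in PDC by 2.13 (limma, adjusted p = 0.00204). Against cDC it was lower in IKDC, by -0.62, and did not pass (adjusted p = 0.316). PDC replicate 1 had the higher NK marker sum of the PDC samples, and also the higher Samd3 and shared Ctla2 signals. Of the NK list, Klrd1 (778.3 and 876.7) and Eomes (34.7 and 46.2) were higher in PDC replicate 2. PDC replicate 1 also had the higher array medians (66.95 against 52.3 on U74A, 72.1 against 59.1 on U74C) and B cell marker sum (1220 against 580). Neither was particular to PDC. B cell marker sums were also higher in replicate 1 of IKDC (2039 against 752) and of cDC (741 against 543). Array medians were also higher in replicate 1 of cDC (65.4 against 58.8 on U74A, 74.9 against 73.5 on U74C). In IKDC the median was higher in replicate 1 on U74C and in replicate 2 on U74A (53.85 against 51.7). Whether NK transcripts in PDC replicate 1 bear on its Samd3 and shared Ctla2 signals was not tested. T cell markers were of interest because Ctla2 genes are known from T cells. They summed to 1531 and 1028 in IKDC, 3478 and 4016 in PDC, and 893 and 654 in cDC. Most of the PDC sum came from Cd8b1, with 2244.5 and 2685.6 in PDC against 84 and 80 in IKDC. Of 6 tested, 1 (Cd3g) was higher and 2 (Cd4 and Cd8b1) lower in IKDC than in PDC. Against cDC, 3 were higher and 0 lower in IKDC. Cd3g had 466.5 and 172.9 in IKDC, 66.2 and 5.2 in PDC, and 22.5 and 5.8 in cDC. Cd3d did not pass against PDC or cDC, and Cd3e was too low to be tested. Mast cell and basophil markers summed to 1074 and 755 in IKDC, 924 and 716 in PDC, and 590 and 547 in cDC, and 0 of 4 tested passed against PDC and 1 of 4 was higher in IKDC than in cDC. That gene was Cma1, a chymase, with 515.2 and 359.1 in IKDC, 218.6 and 204.7 in PDC, and 65.8 and 89.8 in cDC. Ms4a2 was at 298.1 and 69.5 in IKDC, Cpa3 at 18.7 and 20.4 and Fcer1a at 3.6 and 4.5. Erythroid markers summed to 14783 and 17622 in IKDC, 22916 and 9705 in PDC, and 705 and 1728 in cDC, and 1 of 5 was higher in IKDC than in PDC and 4 of 5 than in cDC. Pancreas acinar markers summed to 4965 and 3951 in IKDC, 2512 and 2006 in PDC, and 1636 and 1599 in cDC, and 0 of 9 were higher in IKDC than in PDC and 5 of 9 than in cDC. The part of the T cell, erythroid and pancreas transcripts in the members' signals was not tested.

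The median signal of an array lay between 51.7 and 87.3, and the share of its probe sets at 60 or more between 47.2% and 60.6%. Samples of one population correlated at 0.922 to 0.967 on U74A, 0.866 to 0.91 on U74B and 0.832 to 0.866 on U74C, on the log2 scale over probe sets. Samples of different populations correlated at 0.858 to 0.909 on U74A, 0.809 to 0.858 on U74B and 0.807 to 0.866 on U74C. On U74C, the array type of Samd3, the ranges within and between populations overlapped.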

How the data were processed

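The authors deposited linear signal intensities from GCOS 1.1.1, scaled so that each array averages 150, per the labels. The RNA was amplified in a pair of rounds, and the submitters' processing notes name MAS 5. No detection calls were used. Array number, not depth, limits the precision. Probe sets took the platform's symbols, updated through Entrez identifiers (29131 had 1 symbol, 724 several and 6846 none). Of all probe sets, 23285 reached 60 on at least 2 of 6 arrays and were fitted per array type as log2(signal + 16), which understates changes of low genes. The fit used limma 3.58.1 in R 4.3.3 with 3 populations in 1 model and an intensity trend, and was tested on simulated data. Benjamini-Hochberg adjustment ran across the 3 array types together (threshold 0.05). The brightest tested probe set represents a gene. From each list, up to 4 genes with the smallest adjusted p in a comparison were named, or the 2 brightest where none passed. Members, lists and markers were chosen with earlier results of these data known. Populations and replicate numbers came from sample titles. Promoter windows and gene order are RefSeq's (GRCm38.p6), and the arrays' own build is not used here. Alternatives were other pseudocounts, filters, scalings, fits and samples left out.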

Additional observations from a re-analysis of the deposited data

How the results depend on the processing

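For Samd3, Ctla2b, Fzd5 and the shared Ctla2 probe set, the IKDC differences kept their sign under every alternative run, and the ranges were 3.88 to 4.52 (IKDC minus PDC) and 4.23 to 4.77 (IKDC minus cDC) for Samd3. The pseudocount sets the fitted differences of Fzd5, and of Ctla2b against PDC, where signals lay under 60. With 64, IKDC minus PDC was 3.75 for Ctla2b and 2.77 for Fzd5, and IKDC minus cDC was 3.34 for Ctla2b, 4.04 for the shared probe set and 2.72 for Fzd5. With 1, IKDC minus PDC was 5.57 for Ctla2b and 5.23 for Fzd5, and IKDC minus cDC was 4.93 for Fzd5. PDC minus cDC of Samd3, 0.30 and not past the threshold, was -0.01 to 0.62 with 1 sample left out, the negative value without PDC replicate 1. With 1 sample left out, 493 to 869 probe sets were called in IKDC against PDC (1036 with all), 593 to 1656 in IKDC against cDC (1305 with all) and 327 to 719 in PDC against cDC (849 with all). In those fits a lone sample is taken to vary like the other groups, and fewer samples leave fewer degrees of freedom. Called list genes numbered 8 in each such fit in IKDC against PDC (9 with all), 6 to 12 in IKDC against cDC (11 with all, 7 without IKDC replicate 2 and 6 without cDC replicate 2) and 1 to 3 in PDC against cDC (3 with all, 1 without cDC replicate 1). Over all probe sets of an array type, deviations of samples with the same number correlated at only -0.055 to 0.175, and the numbers were not taken as pairs. B cell marker sums were nevertheless higher in replicate 1 of each population (2039 against 752 in IKDC, 1220 against 580 in PDC, 741 against 543 in cDC). Whether samples with the same number share an origin is not given and was not tested. With the replicate block, 1223 probe sets were called in IKDC against PDC, 1650 in IKDC against cDC and 1055 in PDC against cDC, more than without it in each comparison. The replicate block gave PDC minus cDC an adjusted p of 0.739 for Samd3, 0.312 for Ctla2b and 0.282 for the shared probe set, and among the named calls it ended that of Arhgap18 in IKDC against PDC (0.0508). Of 507 recomputed values of named genes that were called, 441 kept their call and direction and 66 lost the call. These counts include 4930486L24Rik, with 17 alternatives and 2 losses in each IKDC comparison. Its kept calls carry no information, because it had to differ. Not all losses came from leaving out a sample. In IKDC against cDC, the limma fit without an intensity trend lost Plekhm3 (adjusted p = 0.0809), Gsk3b (0.108) and Ctsb (0.0545). Median centring lost Gsk3b (0.0508), Ctsb (0.0871) and Samhd1 (0.0523) there, and the fit without a filter lost Fzd6 (0.0506). In PDC against cDC, the fit without a trend lost L3mbtl3 (0.0997), Arhgap18 (0.0713) and Ctsb (0.0533). Low signal limits Fzd5 in PDC and cDC, Ctla2b in PDC and the single-symbol Ctla2a probe sets, for which only bounds or no level can be given.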
